A study of Mus musculus with 8 samples.

Results

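Ribosome biogenesis and RNA polymerase I genes were followed in splenic CD4+ T cells of mouse offspring as a list of 46 genes, chosen by symbol for their role in making ribosomes. All 46 were found in the expression table, 1 row each, out of 27179 genes, and all 46 were among the 12605 genes tested (0.5 RPKM or more on average over the 8 libraries, RPKM being reads scaled by the counted length of the transcript and by the total of the library). By role they comprised 3 core genes of the box C/D snoRNP, 4 of the box H/ACA snoRNP, 5 multifunction nucleolar proteins, 14 small subunit processing factors, 14 large subunit processing factors and 6 genes of polymerase I transcription.

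The RNA sequencing data held 8 libraries, 2 for each of 4 groups, with the replicate numbers 6 and 7 in each group. All mice were 8 weeks old and of the strain C.Cg-Foxp3tm2Tch/J, which carries a reporter in the Foxp3 locus in all 4 groups. Control offspring descended from untreated parents, and Cd offspring from parents that drank water with 10 ppm CdCl2 through mating and, for the dams, through pregnancy, with plain water from within hours of birth. Cells of both kinds of offspring were enriched by negative selection and sorted by flow cytometry, described in the study as CD4+CD25- conventional T cells. They were then either lysed at once (unstimulated, 0 hours) or cultured for 16 hours with anti-CD3/CD28 beads (stimulated), so stimulation and time in culture cannot be told apart. Each litter was an independent exposure, and the labels do not say whether the unstimulated and stimulated libraries of 1 number came from the same animal, nor whether the libraries of a group came from separate litters. If they did not, the p-values measure only the spread between these libraries.

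Ribosome production starts in the nucleolus, where RNA polymerase I transcribes a long rRNA precursor. Small nucleolar RNAs, held in box C/D and box H/ACA particles (snoRNPs), guide ribose methylation and pseudouridylation of that precursor, and large assemblies of processing factors then cut it and fold it with ribosomal proteins into the small and the large subunit. A resting T cell makes few ribosomes, and growth after stimulation through the T cell receptor is known to raise ribosome production before the first division.

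The libraries held 15542732 to 25486791 reads counted on genes (median 19434588), and each member had between 310 and 84788 reads in each library. Within a group, the 2 libraries correlated at 0.983 to 0.990 over the genes tested. Irf4, a transcription factor induced by T cell receptor signalling, lay between 2.27 and 2.86 RPKM in the unstimulated and between 486 and 561 RPKM in the stimulated libraries, as the labels state. Cd3e was at 306 RPKM or more and Cd4 at 212 RPKM or more in every library. Of 14 markers of CD8 T, B, myeloid, NK and erythroid cells, 10 were under 1 RPKM in every library, and Ms4a1, Cd14 and Hba-a1 were listed at 0 throughout. The highest was Cd8b1 at 11.7 RPKM, while Cd8a was at 0.16 RPKM or less. The B cell marker Cd79a lay between 2.87 and 4.73 RPKM in all libraries. The myeloid marker Itgam lay between 1.56 and 1.85 RPKM in unstimulated and between 0.25 and 0.40 RPKM in stimulated libraries. The NK cell marker Klrb1c lay between 3.15 and 4.35 RPKM in unstimulated and between 0.15 and 0.29 RPKM in stimulated libraries. The summed level of the 14 markers was 18.7 to 20.7 RPKM in unstimulated and 15.2 to 16.9 RPKM in stimulated libraries. Among regulatory T cell markers, Foxp3 lay between 4.48 and 5.08 RPKM in unstimulated and between 5.98 and 7.69 RPKM in stimulated libraries. Ikzf2 lay between 1.84 and 3.75 RPKM in all libraries. Il2ra, also listed as an activation marker, lay between 1.80 and 2.19 RPKM in unstimulated and between 94.0 and 117.5 RPKM in stimulated libraries. The part of all these cell types in the results was not tested. RPKM values are relative to all reads of a library, so more mRNA of a gene per cell and fewer other mRNAs, or a shift in cell makeup, cannot be told apart.

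Stimulation of control offspring T cells was accompanied by higher mRNA of the whole list. Of the 46 members, 46 were higher at an adjusted p under 0.01 (limma, Benjamini-Hochberg adjustment over 12605 genes), where 29.9% of all genes tested were higher. With the further requirement of more than 2-fold, 39 of 46 rose and 0 fell, against 11.5% of all genes that rose. The median log2 fold change of the members was 1.39 (2.62-fold) and that of all genes was 0.070. Fold changes are on the scale of log2(RPKM + 0.1). The values of the stimulated and the unstimulated libraries did not overlap for 46 of 46 members, as for 46% of all genes in the direction of an increase. The members that did not reach 2-fold were Nop10, Nop14, Ddx10, Ddx18, Polr1a, Taf1d and Rrn3. With 2 libraries against 2 no exact permutation test can go below p = 0.333, so the spread in limma was estimated over the 8 libraries together, with 4 residual degrees of freedom, and moderated by a trend with mean expression.

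In Cd offspring the same comparison gave 46 of 46 members higher at an adjusted p under 0.01 (limma), against 30.2% of all genes. At more than 2-fold 36 rose and 0 fell, against 11.4% of all genes, with a median log2 fold change of 1.36 (all genes 0.050). Again 46 of 46 members did not overlap, as for 44.7% of all genes. The members under 2-fold were Nop56, Nop14, Utp18, Ddx10, Ddx18, Ddx56, Bysl, Polr1a, Taf1d and Rrn3. The responses of control and Cd offspring rest on no shared library. Across the 46 members they correlated with a Pearson's r of 0.945 (0.906 across all genes, which are not independent replicates). The median size of the difference between the responses was 0.095 on the log2 scale and the highest 0.42, for Fbl. The members together took 0.458% to 0.466% of the counted reads in the 4 unstimulated and 1.25% to 1.32% in the 4 stimulated libraries.

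**Figure D1:**
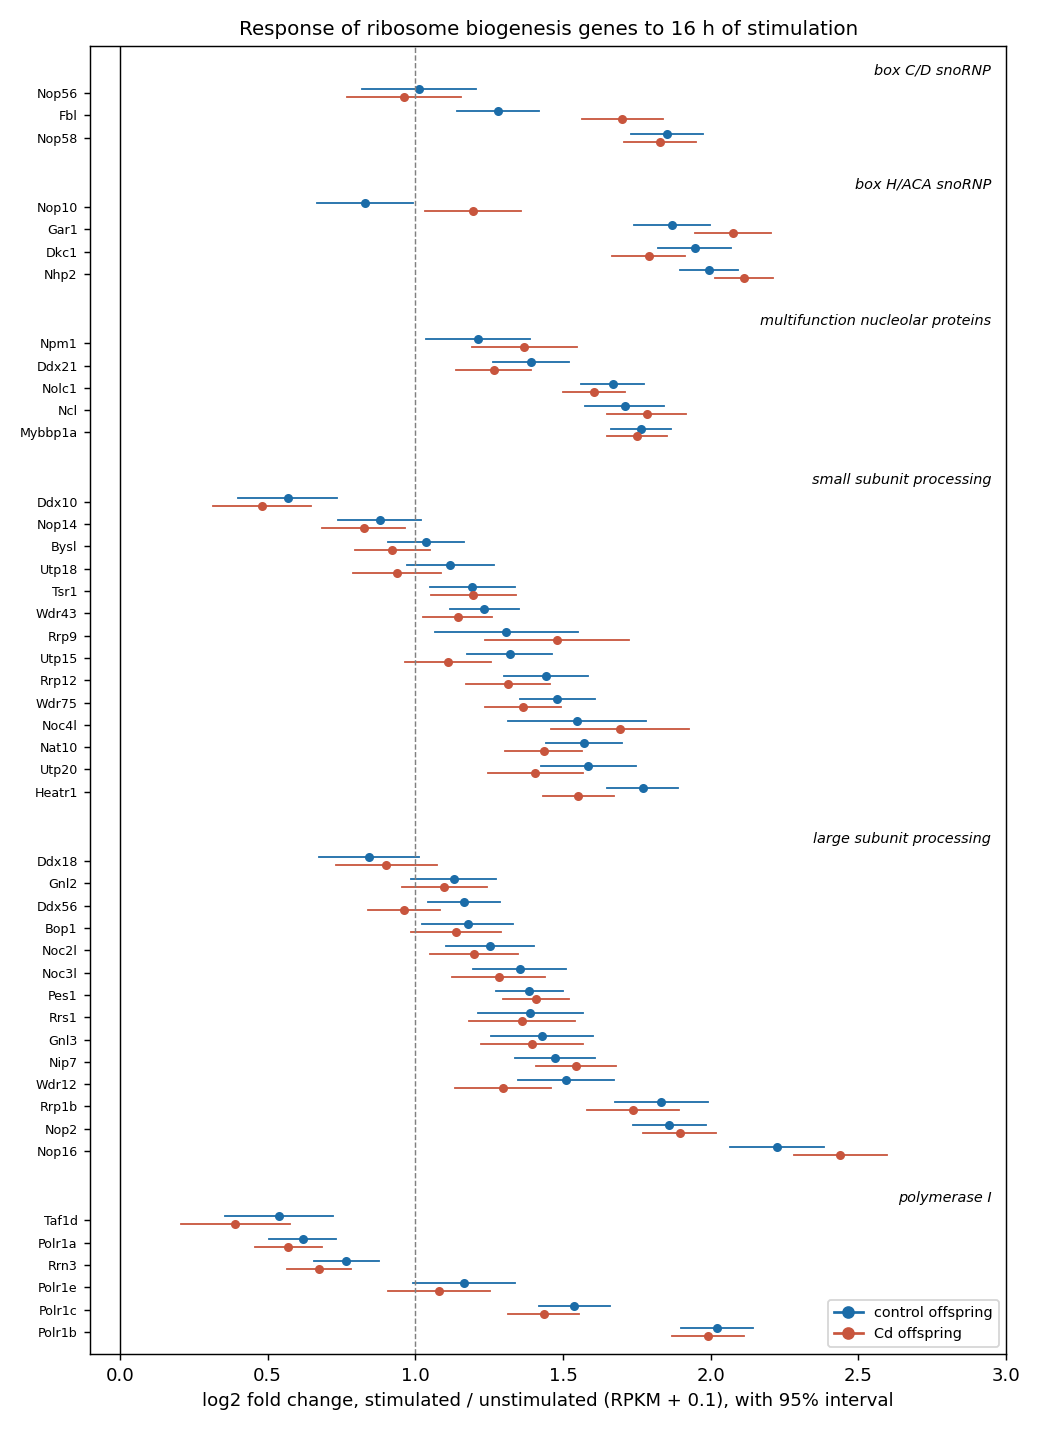
Log2 fold change from unstimulated to stimulated cells (horizontal axis, log2 scale of RPKM + 0.1) for each of the 46 genes, grouped by role, in control (blue) and Cd (red) offspring; points are estimates from 2 libraries against 2, lines are 95% intervals, and the dashed line marks 2-fold. Every estimate is above 0, from 0.54 (Taf1d) to 2.22 (Nop16) in control offspring, and the polymerase I genes are the most spread.

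The members that moved together were compared at the sequence level in their promoters. RefSeq promoter windows of GRCm38.p6, 250 bases before to 50 bases after the start, were matched for 40 of the 46 members (44 windows). They were not matched for Fbl, Gnl2, Rrp12, Npm1, Bop1 and Rrs1. The E-box CACGTG, a palindrome, was in 18.2% of the 44 windows, against 7.15% of all promoter windows and 10.2% of those of the genes tested. It lay in the windows of Nop2, Rrn3, Utp18, Mybbp1a, Utp20, Tsr1, Wdr43 and Pes1. The ETS-type element CCGGAAGT, searched on both strands, was in 22.7% of the windows against 3.89% and 8.68%. The GC box GGGCGG, on both strands, was in 75% against 35.7% and 62.0%. None of the 3 motifs contains another, no test was run, and a match is a run of letters and not a shown site of binding.

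The windows of 4 members follow, 5′ to 3′ on the strand of the gene, with CACGTG in capitals. They were chosen because Nop16 had the strongest response, Nop2 and Mybbp1a were among the stronger responders of their roles, and Rrn3 is the initiation factor of polymerase I with a response under 2-fold.
Nop16 (chr13:54590025-54590324, minus strand): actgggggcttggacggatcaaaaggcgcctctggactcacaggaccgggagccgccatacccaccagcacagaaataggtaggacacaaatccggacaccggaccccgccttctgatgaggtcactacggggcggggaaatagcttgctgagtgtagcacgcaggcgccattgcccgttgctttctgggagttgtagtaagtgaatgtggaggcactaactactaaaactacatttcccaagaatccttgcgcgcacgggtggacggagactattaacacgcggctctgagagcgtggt
Nop2 (chr6:125131633-125131932, plus strand): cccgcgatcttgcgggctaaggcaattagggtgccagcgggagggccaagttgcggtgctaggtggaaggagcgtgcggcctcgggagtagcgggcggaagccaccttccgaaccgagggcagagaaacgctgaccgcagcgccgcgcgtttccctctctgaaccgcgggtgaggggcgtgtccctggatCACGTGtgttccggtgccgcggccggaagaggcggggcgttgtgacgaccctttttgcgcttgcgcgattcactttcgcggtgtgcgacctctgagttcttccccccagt
Mybbp1a (chr11:72441077-72441376, plus strand): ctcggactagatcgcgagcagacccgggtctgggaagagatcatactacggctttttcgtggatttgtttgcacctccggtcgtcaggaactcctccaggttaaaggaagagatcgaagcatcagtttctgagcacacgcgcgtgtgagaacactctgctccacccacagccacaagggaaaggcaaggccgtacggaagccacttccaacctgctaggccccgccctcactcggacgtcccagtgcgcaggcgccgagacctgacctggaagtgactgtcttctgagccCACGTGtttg
Rrn3 (chr16:13780449-13780748, plus strand): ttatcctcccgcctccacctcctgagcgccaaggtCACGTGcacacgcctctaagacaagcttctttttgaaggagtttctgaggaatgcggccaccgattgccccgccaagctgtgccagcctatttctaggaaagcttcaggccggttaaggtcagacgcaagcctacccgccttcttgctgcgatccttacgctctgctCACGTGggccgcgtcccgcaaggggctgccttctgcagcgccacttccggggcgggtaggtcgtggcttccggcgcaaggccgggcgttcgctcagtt
The window of Nop16 holds no CACGTG, while that of Nop2 holds 1, with its first base 60 bases before the start. In Mybbp1a it begins 40 bases after the start. Rrn3 holds it at 215 and at 48 bases before the start. Of the 40 members with a window, 8 hold CACGTG, so these 4 windows do not show how common it is.

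The core of the box C/D snoRNP includes, among the members, fibrillarin (Fbl), the methyltransferase that modifies the ribose of rRNA, and the scaffold proteins Nop56 and Nop58. All 3 rose by more than 2-fold in control offspring (11.5% of all genes). Nop58 (NCBI gene 55989, chromosome 1 from 59684961 to 59711510 of GRCm38.p6) stood at 58.5 and 56.1 RPKM in unstimulated and 214 and 200.2 RPKM in stimulated cells of control offspring, and at 54.8 and 57.3 RPKM and 201 and 198 RPKM in Cd offspring. Its log2 fold change was 1.85 (standard error, SE, 0.052, limma adjusted p = 3.36e-07) in control and 1.83 in Cd offspring. Nop56 (NCBI gene 67134, chromosome 2 from 130274367 to 130279313) had 70.1 and 70.03 RPKM without and 142 and 141 RPKM with stimulation in control, and 78.4 and 64.6 RPKM and 137 and 140.4 RPKM in Cd offspring. All stimulated libraries of both genes lay above all unstimulated ones, but the size of the step differed. For Nop56 the log2 fold change was 1.01 in control (limma adjusted p = 2.69e-05) and 0.96 in Cd offspring, just above and just under 2-fold. With median-of-ratios scaling it was 0.93 in control offspring, and with quantile normalization 0.95, both under 2-fold. The level of Nop58 was 0.699 to 0.887 times that of Nop56 in the unstimulated and 1.41 to 1.51 times in the stimulated libraries, so the order of these partner genes was opposite in all 4 stimulated libraries to that in all 4 unstimulated ones. Nop56 holds 5 annotated snoRNA genes in its span and Nop58 holds 4, as intron hosts do, and their reads cannot be told apart where a snoRNA is counted with its host.

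Fbl (NCBI gene 14113, chromosome 7 from 28168893 to 28179269) was the member whose level differed most by exposure before stimulation. It stood at 33.5 and 33.5 RPKM in unstimulated control and at 25.1 and 22.9 RPKM in unstimulated Cd offspring. After stimulation the values were 82.2 and 80.7 RPKM in control and 75.8 and 80.9 RPKM in Cd offspring. The unstimulated groups thus did not overlap, while the stimulated groups did. The log2 fold change with stimulation was 1.28 (SE 0.059) in control and 1.70 in Cd offspring, with adjusted p = 1.75e-06 and 6.78e-07 from limma. Relative to Nop56, the Fbl level was 0.478 in both unstimulated control libraries, 0.321 and 0.355 in those of Cd offspring and 0.553 to 0.580 in the stimulated libraries.

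In the box H/ACA snoRNP, which carries out pseudouridylation, all 4 genes were higher at an adjusted p under 0.01 in limma. With the 2-fold limit 3 of 4 were called in control (11.5% of all genes) and 4 of 4 in Cd offspring (11.4%). Nhp2 (NCBI gene 52530, chromosome 11 from 51619773 to 51623718), an RNA-binding core protein, went from 31.2 and 30.2 RPKM to 123 and 122 RPKM in control and from 28.2 and 28.03 RPKM to 121 and 122 RPKM in Cd offspring. Its log2 fold change was 1.995 (SE 0.042, limma adjusted p = 1.85e-07), or 3.99-fold. Dkc1, which encodes the pseudouridine synthase dyskerin, had a log2 fold change of 1.95 in control and 1.79 in Cd offspring, and Gar1 had 1.87 and 2.08. Nop10 (NCBI gene 66181, chromosome 2 from 112261926 to 112262898), the smallest of the core proteins, was the most abundant of the 4 before stimulation and had the weakest response. It stood at 72.5 and 67.4 RPKM in unstimulated and 128 and 121 RPKM in stimulated cells of control offspring, and at 55.6 and 61.8 RPKM and 130.5 and 138 RPKM in Cd offspring. The log2 fold change was 0.83 (limma adjusted p = 3.06e-05) in control, under 2-fold, and 1.20 in Cd offspring. Nop10 was 1.77 to 2.38 times the level of Dkc1 in unstimulated libraries and 1.06 to 1.25 times in stimulated ones, so these levels came closer together after stimulation.

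**Figure D2:**
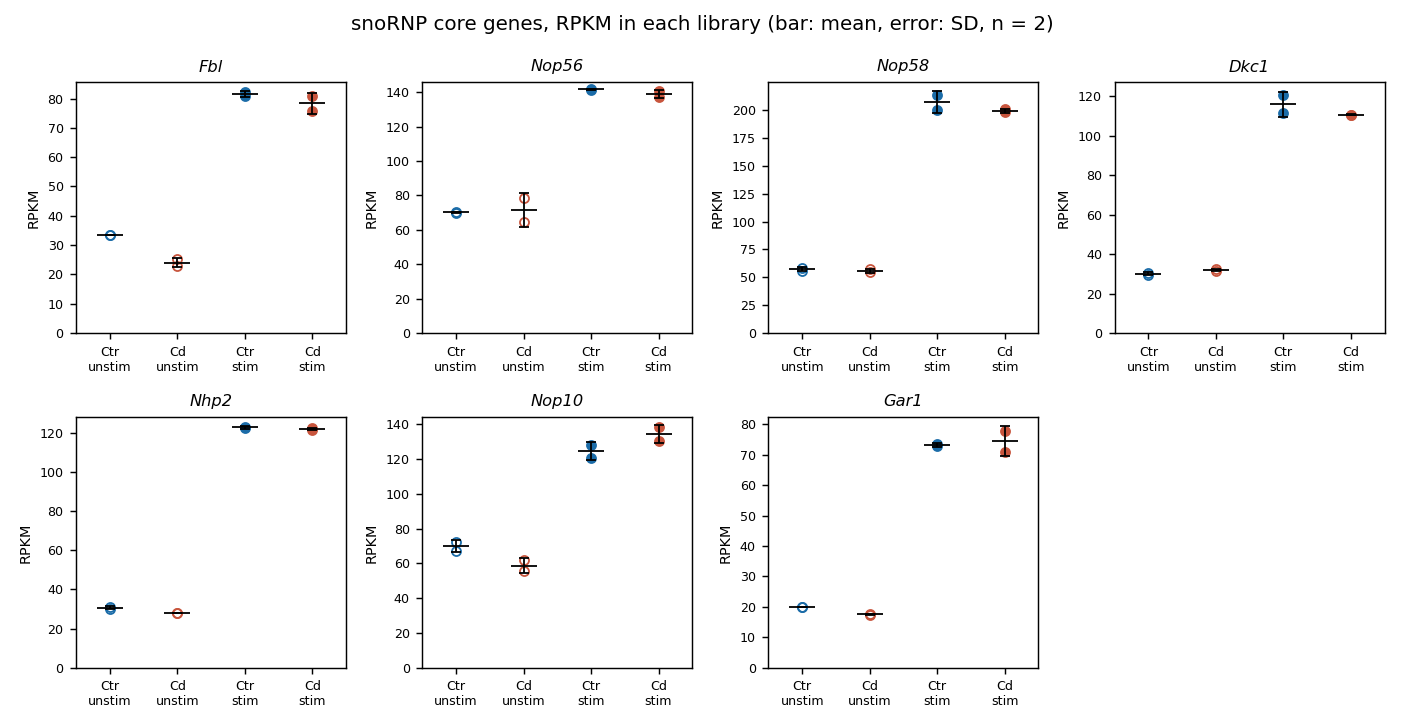
RPKM (vertical axis, linear from 0) of the 7 snoRNP core genes in each library, for control (blue) and Cd (red) offspring, open circles unstimulated and filled circles stimulated; the bar is the mean and the error the SD of 2 libraries. Fbl lies at 33.5 and 33.5 RPKM in unstimulated control against 25.1 and 22.9 RPKM in unstimulated Cd offspring, and Nop58 passes Nop56 only in the stimulated libraries.

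The multifunction nucleolar proteins include Ncl and Npm1, the 2 most abundant members in every group. All 5 rose by more than 2-fold in both kinds of offspring (11.5% and 11.4% of all genes), with median log2 fold changes of 1.67 in control and 1.60 in Cd offspring. Nucleolin (Ncl, NCBI gene 17975, chromosome 1 from 86344719 to 86359455), which binds the rRNA precursor, went from 126 and 124 RPKM to 429.9 and 388 RPKM in control and from 117 and 118 RPKM to 403 and 403 RPKM in Cd offspring. It was the highest of all members after stimulation. Nucleophosmin (Npm1, NCBI gene 18148, chromosome 11 from 33152498 to 33164142), a chaperone of nucleolar assembly, was at 139 and 128 RPKM before and 316 and 304 RPKM after stimulation in control offspring. In Cd offspring it was at 108 and 122 RPKM and 307 and 286 RPKM. Npm1 had the smallest step of the 5, a log2 fold change of 1.21 in control and 1.37 in Cd offspring. Mybbp1a (NCBI gene 18432, chromosome 11 from 72441327 to 72451770), a nucleolar Myb-binding protein, had the largest in control offspring, from 56.9 and 57.5 RPKM to 194 and 195 RPKM, a log2 fold change of 1.76 (SE 0.043, limma adjusted p = 2.49e-07). Its values in Cd offspring were 57.1 and 55.7 RPKM and 186 and 194 RPKM. Nolc1, a chaperone of snoRNPs, and Ddx21, an RNA helicase of the nucleolus, had log2 fold changes of 1.67 and 1.39 in control offspring, and 1.60 and 1.26 with Cd exposure. A mean of 100 RPKM or more was reached by 2 members in unstimulated control cells (Npm1 and Ncl) and by 11 in stimulated ones.

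All 14 small subunit processing factors were higher at an adjusted p under 0.01 in limma, and 12 passed 2-fold in control (11.5% of all genes) and 10 in Cd offspring (11.4%), with median log2 fold changes of 1.31 and 1.26. Heatr1, Wdr43, Wdr75 and Utp15 belong to the part of the processome that joins the rRNA precursor early and also acts in polymerase I transcription. Heatr1 (NCBI gene 217995, chromosome 13 from 12395375 to 12438893) had the largest response of the role in control offspring, from 20.9 and 22.4 RPKM to 75.1 and 72.9 RPKM. Its log2 fold change was 1.77 (SE 0.051, limma adjusted p = 3.77e-07), and in Cd offspring it went from 23.4 and 23.8 RPKM to 69.7 and 69.2 RPKM, a log2 fold change of 1.55. Wdr43 (NCBI gene 72515, chromosome 17 from 71616178 to 71659031) was the most abundant of the role, at 43.2 and 41.6 RPKM without and 102 and 98.1 RPKM with stimulation in control and at 41.5 and 43.9 RPKM and 93.2 and 95.6 RPKM in Cd offspring. Its response was smaller, 1.23 and 1.14. Those of Wdr75 and Utp15 were 1.48 and 1.32 in control offspring, and 1.36 and 1.11 with Cd exposure. Nat10, which acetylates cytidines of rRNA, had 1.57 and 1.44, and Utp20, a large scaffold protein, 1.59 and 1.41.

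The helicase gene Ddx10 (NCBI gene 77591, chromosome 9 from 53098454 to 53248170) was the small subunit factor with the weakest response. It stood at 26.4 and 25.01 RPKM before and 39.3 and 37.1 RPKM after stimulation in control offspring, and at 25.5 and 28.9 RPKM and 37.4 and 38.5 RPKM in Cd offspring. The libraries did not overlap, and the log2 fold change was 0.57 (limma adjusted p = 2.64e-04) and 0.48. Nop14, a processome component, went from 30.2 and 29.7 RPKM to 57.1 and 53.2 RPKM in control and from 31.96 and 29.3 RPKM to 53.9 and 54.7 RPKM in Cd offspring, and was under 2-fold in both. Utp18 and Bysl passed 2-fold in control offspring only. Utp18, of the same processome, had 28.9 and 26.2 RPKM before and 60.4 and 59.4 RPKM after stimulation in control, and 30.1 and 29.9 RPKM before and 55.3 and 59.8 RPKM after it in Cd offspring, log2 fold changes of 1.12 and 0.94. Bysl, a factor of late small subunit maturation, had 11.1 and 10.6 RPKM before and 22.5 and 22.2 RPKM after stimulation in control, and 12.2 and 12.03 RPKM before and 22.9 and 23.1 RPKM after it in Cd offspring, log2 fold changes of 1.04 and 0.92. The test of the difference between the responses was not passed for either gene, with adjusted p = 0.523 for Utp18 and 0.612 for Bysl from limma. The remaining members of the role (Rrp9, Rrp12, Tsr1 and Noc4l) had log2 fold changes of 1.31, 1.44, 1.19 and 1.55 in control offspring.

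All 14 large subunit processing factors were also higher at an adjusted p under 0.01 in limma, 13 of them by more than 2-fold in control (11.5% of all genes) and 12 in Cd offspring (11.4%), with median log2 fold changes of 1.39 and 1.33. Nop16 (NCBI gene 28126, chromosome 13 from 54584191 to 54590097), a nucleolar protein of large subunit assembly, had the strongest response of all 46 members. It stood at 12.2 and 10.97 RPKM before and 56.6 and 52.2 RPKM after stimulation in control, and at 9.77 and 9.94 RPKM and 53.7 and 54.1 RPKM in Cd offspring. The log2 fold change was 2.23 (SE 0.068, limma adjusted p = 4.25e-07) in control and 2.44 in Cd offspring, or 4.67-fold and 5.42-fold. Nop2, which methylates a cytosine of the large subunit rRNA, had 1.86 and 1.90, and Rrp1b 1.83 and 1.74. Pes1, Bop1 and Wdr12, which form one complex (PeBoW) needed for large subunit maturation, had 1.39, 1.18 and 1.51 in control offspring, and 1.41, 1.14 and 1.30 with Cd exposure. Their mean levels after stimulation in control offspring were 55.1 ± 1.002 RPKM (SD, n = 2) for Pes1, 51.7 ± 0.816 RPKM (SD, n = 2) for Bop1 and 28.9 ± 0.742 RPKM (SD, n = 2) for Wdr12.

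Gnl3 (NCBI gene 30877, chromosome 14 from 31012433 to 31019131), which encodes the GTP-binding protein nucleostemin, was the most abundant large subunit factor after stimulation, and second to Noc2l before it. It went from 42.03 and 39.8 RPKM to 111 and 109.6 RPKM in control and from 43.7 and 37.5 RPKM to 105 and 108 RPKM in Cd offspring, log2 fold changes of 1.43 and 1.40. Ddx18, a helicase, had the smallest step of the role, from 16.3 and 15.7 RPKM to 30.01 and 27.7 RPKM in control and from 16.1 and 14.3 RPKM to 28.3 and 28.6 RPKM in Cd offspring. Its log2 fold changes of 0.84 and 0.90 were both under 2-fold. Ddx56, another helicase, had 13.9 and 13.9 RPKM before and 31.2 and 31.4 RPKM after stimulation in control, and 14.4 and 15.3 RPKM before and 28.9 and 29.1 RPKM after it in Cd offspring, 1.17 and 0.96 on the log2 scale. Gnl2, Nip7, Rrs1, Noc2l and Noc3l rose in both kinds of offspring, by 1.13, 1.47, 1.39, 1.25 and 1.35 in control.

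All 6 genes of polymerase I transcription were higher after stimulation at an adjusted p under 0.01 in limma, and 3 of 6 also passed 2-fold in each kind of offspring (11.5% of all genes in control and 11.4% in Cd offspring), with median log2 fold changes of 0.97 in control and 0.88 in Cd offspring. Polr1a and Polr1b encode the 2 largest subunits, which together form the catalytic centre. Polr1b (NCBI gene 20017, chromosome 2 from 129100970 to 129128060) rose from 13.2 and 13.3 RPKM to 53.5 and 54.7 RPKM in control and from 13.4 and 12.6 RPKM to 52.6 and 51.4 RPKM in Cd offspring. Its log2 fold change was 2.02 (SE 0.052, limma adjusted p = 2.68e-07) and 1.99. Polr1a (NCBI gene 20019, chromosome 6 from 71909053 to 71979435) had 24.6 and 25.7 RPKM before and 38.3 and 39.1 RPKM after stimulation in control, and 24.2 and 24.9 RPKM before and 36.5 and 36.3 RPKM after it in Cd offspring, a log2 fold change of 0.62 (limma adjusted p = 2.18e-05) and 0.57. Per length, Polr1b mRNA was 0.507 to 0.556 times that of Polr1a in the unstimulated and 1.40 to 1.44 times in the stimulated libraries. The order of these partner subunits was thus opposite in all 4 stimulated libraries to that in all 4 unstimulated ones.

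Polr1c, a subunit shared with polymerase III, had a log2 fold change of 1.54 in control and 1.44 in Cd offspring, and Polr1e 1.17 and 1.08. Rrn3 (NCBI gene 106298, chromosome 16 from 13780699 to 13814841), the initiation factor that recruits the polymerase to the rRNA gene promoter, stood at 24.05 and 24.1 RPKM before and 41.2 and 40.8 RPKM after stimulation in control. It was at 23.4 and 24.3 RPKM and 38.1 and 38.2 RPKM in Cd offspring. The groups did not overlap, with log2 fold changes of 0.77 (limma adjusted p = 5.88e-06) and 0.67, both under 2-fold. Taf1d (NCBI gene 75316, chromosome 9 from 15305953 to 15316997), a subunit of the promoter selectivity complex, was the most abundant of the role before stimulation, below Polr1c after it, and had the smallest response of all 46 members. Its values were 52.8 and 54.6 RPKM before and 82.9 and 73.6 RPKM after stimulation in control, and 60.3 and 52.99 RPKM before and 74.7 and 73.6 RPKM after it in Cd offspring. The log2 fold change was 0.54 (SE 0.078, limma adjusted p = 5.75e-04) and 0.39. The span of Taf1d holds 6 annotated snoRNA genes and overlaps others. In all, 8 of the 46 members span snoRNA genes (Nop56, Nop58, Dkc1, Ncl, Wdr43, Gnl3, Tsr1 and Taf1d) and 18 overlap another annotated gene. Whether the counting used strand is not given in the sources used here, so the reads of overlapping genes cannot be told apart.

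**Figure D3:**
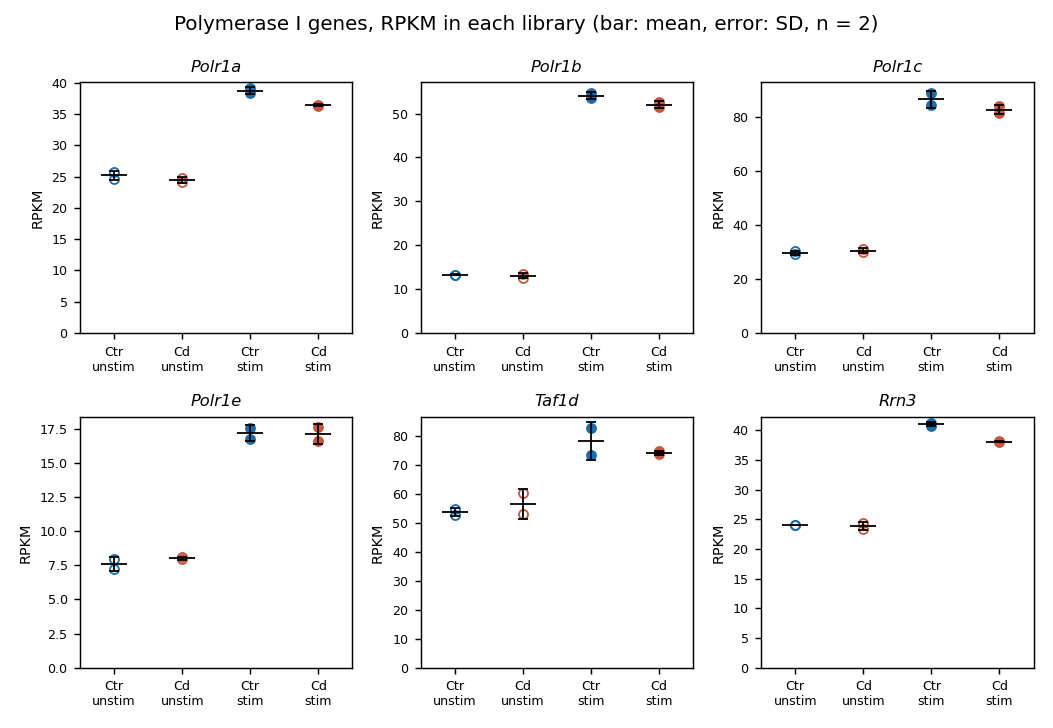
RPKM (vertical axis, linear from 0) of the 6 polymerase I genes in each library, for control (blue) and Cd (red) offspring, open circles unstimulated and filled circles stimulated; the bar is the mean and the error the SD of 2 libraries. Polr1b goes from 13.2 and 13.3 to 53.5 and 54.7 RPKM in control offspring, whereas Polr1a goes from 24.6 and 25.7 to 38.3 and 39.1 RPKM.

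The row of the rRNA precursor itself, Rn45s, was looked at after its values were seen. It stood at 6384 and 8115 RPKM in unstimulated and 7191 and 7787 RPKM in stimulated cells of control offspring, and at 7128 and 6850 RPKM and 8441 and 9409 RPKM in Cd offspring. The control groups overlapped, and the log2 fold change was 0.056 in control (95% interval -0.31 to 0.43) and 0.35 in Cd offspring (-0.020 to 0.72), with adjusted p = 0.774 and 0.0855 from limma. The libraries were made from poly(A) mRNA, in which rRNA is a remainder, and rRNA gene copies share their sequence, so these values measure neither the amount nor the synthesis of rRNA.

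Of the wider pathway, 86 further genes of ribosome biogenesis and polymerase I were listed, all of them tested. In control offspring 32 of 86 rose and 0 fell at more than 2-fold, against 11.5% of all genes that rose, and in Cd offspring 34 rose and 0 fell, against 11.4% (22 rose with quantile normalization). The median log2 fold change was 0.85 in both. Ppan, a factor of large subunit maturation, had the largest, 1.86 in control and 1.88 in Cd offspring, followed in control offspring by Mrto4, which takes part in ribosomal stalk assembly (1.75), and Pno1, a small subunit factor (1.72). At the other end were Ttf1, the transcription termination factor of polymerase I, and Nop53, a large subunit factor. Ttf1 had 15.6 and 16.7 RPKM before and 12.1 and 11.6 RPKM after stimulation in control offspring, a log2 fold change of -0.44 (limma adjusted p = 4.67e-04), and Nop53 had -0.41 (limma adjusted p = 0.00212). Both were under 2-fold. Ubtf, the upstream binding factor of the rRNA gene promoter, had 0.57. The polymerase subunit genes Polr1f, Polr1g, Polr1d and Polr1h had 0.84, 1.15, 0.28 and 0.37, of which that of Polr1g passed 2-fold. In control offspring Taf1a went from 8.53 and 9.85 RPKM to 12.9 and 10.6 RPKM. Taf1b went from 20.4 and 19.4 RPKM to 18.6 and 17.6 RPKM, and Taf1c from 10.6 and 10.6 RPKM to 9.07 and 11.3 RPKM. Of the 86 genes, 80 were above 0 and 6 below in control offspring.

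Prenatal Cd exposure was compared with control in unstimulated cells to see whether resting T cells differed in these genes. A single member of 46, Fbl, passed the test at an adjusted p under 0.05, where 0.896% of all genes did (0.762% of all genes were lower and passed). Fbl fell by 0.48 on the log2 scale in Cd offspring (SE 0.059, limma adjusted p = 0.0185), to 0.718 times the control level, with 699 and 632 reads counted for control and 566 and 546 for Cd offspring. The call was lost without the trend (adjusted p = 0.0970), with only the libraries of the comparison (adjusted p = 0.108), without control unstimulated replicate 6 (adjusted p = 0.128) and without control unstimulated replicate 7 (adjusted p = 0.0756), all from limma, each with a log2 fold change of -0.48. Over all alternatives tried the adjusted p ran from 0.00722 to 0.128 and the log2 fold change from -0.54 to -0.41. The median of the members was 0.016 (all genes 0.0065), with 24 above and 22 below 0. At an unadjusted p under 0.05 there were 8 members, against 13.9% of all genes.

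Next to Fbl, the lowest values were those of Nop10, Nop16, Npm1, Noc4l and Gar1, with log2 fold changes of -0.25, -0.23, -0.22, -0.21 and -0.19. None passed the test, with adjusted p from 0.191 for Nop10 to 0.401 for Noc4l from limma. In the box H/ACA snoRNP, Nhp2, Nop10 and Gar1 did not overlap between the groups and were lower in Cd offspring, while Dkc1 was higher, by 0.09 without passing the test. Non-overlap in the direction of a decrease was seen for 11 of 46 members and 20% of all genes, and in the direction of an increase for 11 of 46 and 22.3% of all genes. The highest value was that of Bysl, 0.16 (limma adjusted p = 0.28), and 11 of 14 small subunit factors were above 0, with a median of 0.072. All intervals of the 46 members lay within -0.62 to 0.30, so a 2-fold difference in either direction lay outside the interval of each member.

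The differences in unstimulated cells went with transcript length. Across the 46 members, Spearman's rho between the log2 fold change and the counted length was 0.488 (0.173 across all genes tested, from the same libraries), given as a description. Of the 5 members counted over less than 1500 nucleotides (Nop10, Nhp2, Fbl, Gar1 and Polr1c), 4 were below 0, with a median of -0.19, and of the 41 longer ones 18 were below 0, with a median of 0.025. Over all genes tested the medians were -0.055 for the shorter and 0.020 for the longer. Cytosolic ribosomal protein genes, 84 found by symbol, had a median of -0.47 for Cd against control in unstimulated cells. Of these, 28 were lower and passed the test, where 0.762% of all genes did. In stimulated cells their median was 0.073, with 64 of 84 above 0, against 5786 of all 12605 genes, and 0 that passed. For the difference of responses their median was 0.57, and 17 passed (0.357% of all genes), each with a higher response in Cd offspring. That difference uses the same unstimulated libraries as the -0.47. Without the trend, calls over all genes went from 113 to 14 in unstimulated cells and from 45 to 4 for the difference. The ribosomal protein calls were not followed through the alternatives. The part of transcript length in the lower Fbl value was not tested.

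**Figure D4:**
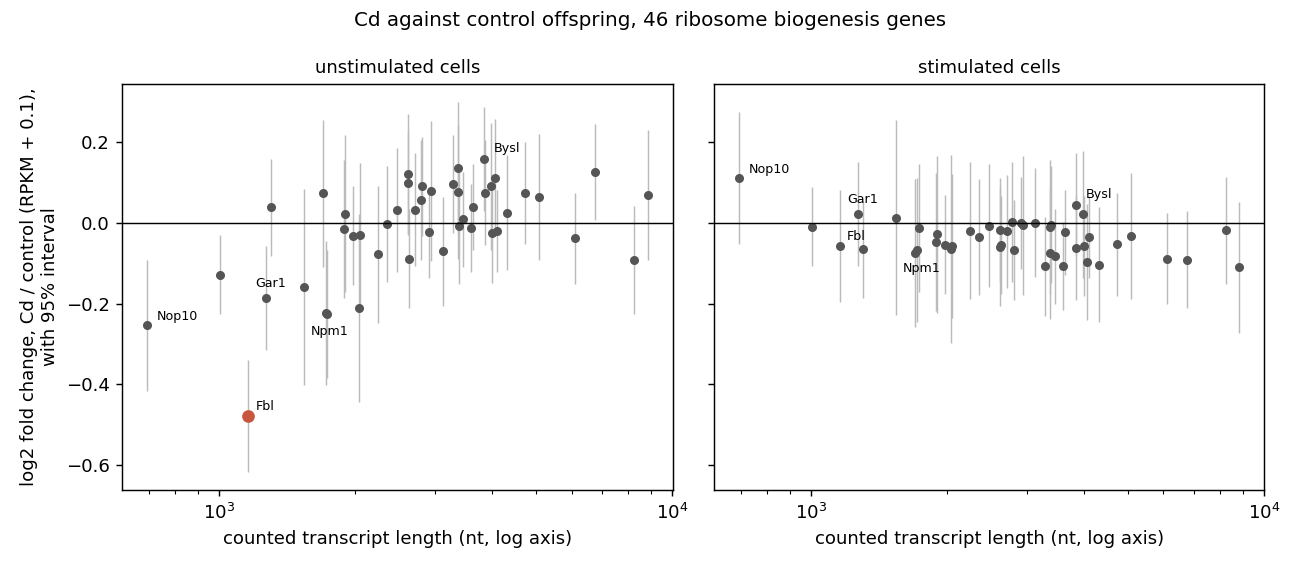
Log2 fold change of Cd against control offspring (vertical axis, scale of RPKM + 0.1, with 95% intervals) against counted transcript length (horizontal axis, log scale, nucleotides) for the 46 genes, in unstimulated (left) and stimulated (right) cells. Fbl at -0.48 (red) is the one member that passed the test, and Nop10, the shortest transcript, is at -0.25 in unstimulated and at 0.11 in stimulated cells.

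In stimulated cells, 0 of 46 members and 0 of 12605 genes (0%) passed the limma test for Cd exposure (adjusted p under 0.05). At an unadjusted p under 0.05 there were 0 members and 414 genes (3.28%), and limma voom on the recovered reads also called 0 members. The values leaned to one side within a narrow range. Below 0 were 39 of 46 members, against 54.1% of all genes, and the median was -0.041 (all genes -0.0090). Without control stimulated replicate 6 the count below 0 was 30 and the median was -0.0099. The lowest value was that of Utp20 and the highest that of Nop10. Utp20 stood at 44.2 and 41.8 RPKM in control and 41.2 and 38.4 RPKM in Cd offspring after stimulation, and at 13.7 and 14.8 RPKM and 14.4 and 15.5 RPKM before it. Its log2 fold change in stimulated cells was -0.11 (95% interval -0.27 to 0.05). That of Nop10 was 0.11 (95% interval -0.05 to 0.27). All 6 polymerase I genes were below 0, from -0.11 for Rrn3 to -0.01 for Polr1e, and all 5 multifunction nucleolar proteins, from -0.07 for Npm1 to -0.02 for Ncl. For every member the interval lay within -0.30 to 0.27.

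Whether Cd offspring responded to stimulation by another amount was tested as an interaction. At an adjusted p under 0.05, 0 of 46 members passed in limma, where 0.357% of all genes did; limma voom also called 0, and 6 members were at an unadjusted p under 0.05, against 10.6% of all genes. The largest difference was that of Fbl, whose response was higher by 0.42 on the log2 scale in Cd offspring (95% interval 0.23 to 0.62, limma adjusted p = 0.143), followed by Nop10 with 0.36 (95% interval 0.13 to 0.59, limma adjusted p = 0.265). These contrasts use the same unstimulated libraries as the comparison above. The lowest was Heatr1 with -0.22 (95% interval -0.39 to -0.05, limma adjusted p = 0.372), and 32 of 46 members were below 0, against 52.9% of all genes. Intervals of 43 of the 46 members lay within ± 0.5.

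In the wider list of 86 genes, 0 passed the limma test in either Cd comparison or in the difference of responses. At an unadjusted p under 0.05 in limma there were 7 in unstimulated cells, against 13.9% of all genes. There were 3 in stimulated cells (3.28% of all genes) and 6 for the difference (10.6% of all genes). The lowest in unstimulated cells was Polr1g, a polymerase I subunit gene, at 8.78 and 9.03 RPKM in control and 6.89 and 7.36 RPKM in Cd offspring. The groups did not overlap, and the log2 fold change was -0.32 (limma adjusted p = 0.114). In stimulated cells the lowest was Mrto4 with -0.17 and the highest Sbds, a factor of late large subunit maturation, with 0.09. The difference of responses ran from -0.23 for Mrto4 to 0.28 for Polr1g.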

How the data were processed

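RNA was sequenced as poly(A) mRNA libraries. Per the study's methods and the submitters' processing notes, reads were aligned to mm10 with Subread and counted on RefSeq transcripts with featureCounts, and changed lncRNAs were identified with EdgeR. The versions, strand setting and treatment of reads with several alignments are not given in the sources used here. The authors deposited 1 table of 27179 genes and 8 libraries. The log2 values in it were made by the authors from the RPKM of each gene and library, as log2(RPKM + 1) + 0.0001, read from the values (0.0001 stands for an RPKM of 0). The tests were planned for RPKM, and this transformation was therefore undone first. The spacing of the RPKM values gave back whole reads, the counted length of each gene and the total of each library (17794 genes above 0 in 2 or more libraries, within 0.01 of a read). These set the depth.

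Testing covered the genes whose RPKM averaged 0.5 or more, on log2(RPKM + 0.1) with limma 3.58.1 (R 4.3.3), with 4 group means, a trend in the prior and Benjamini-Hochberg adjustment, two-sided. For stimulation, a call needed over 2-fold and an adjusted p under 0.01. Cd comparisons and the difference of responses were called at 0.05. No replicate block was used. The pipeline was tested on simulated data. Groups came from the labels. Coordinates, overlaps and promoters came from RefSeq (GRCm38.p6). Protein sequences were not used here, and 1 cell type marker is not reported here.

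The members, the wider list and the tests were chosen with earlier results of these data known, so no test over the list was run. Per role, the most abundant member and the largest and smallest response are given in every library, as are members called for Cd (otherwise the highest and lowest) and those under 2-fold. The level ratios between partner genes and the length comparison were chosen after the values were seen. Alternatives were other pseudocounts, filters, scalings, thresholds, a replicate block, no trend, fewer libraries, limma voom on the recovered reads and each library left out. Python 3.11.15, numpy 2.4.6, pandas 2.3.3 and matplotlib 3.10.9 were used.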

Additional observations from a re-analysis of the deposited data

How the results depend on the processing

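Of 1111 alternative values for 59 results, 1075 were kept. The value of a gene was kept if its direction and call held, whatever its size. A count was kept if it stayed within a set ratio of the main count. A median was kept if it moved by less than 0.0146 on the log2 scale. Several alternatives leave a member's fold change as it was and can alter only the calls. These are the other filters, the replicate blocks, no trend, only the libraries of the comparison, and leaving out a library outside it. The share kept is therefore partly fixed in advance. The sign of no called value turned, but that of the members' median for Cd in unstimulated cells did without control unstimulated replicate 7 (-0.0064) and without Cd unstimulated replicate 6 (-0.016). The members' median log2 fold change with stimulation was 1.37 and 1.35 in control offspring with pseudocounts of 0.5 and 1 RPKM, 1.31 with median-of-ratios scaling and 1.24 with quantile normalization, and 1.35, 1.33, 1.30 and 1.22 in Cd offspring. Quantile normalization also moved the median of all genes from 0.070 to -0.033 in control offspring, the members' median for Cd in unstimulated cells to 0.031, and the wider list's increases in Cd offspring to 22. At an adjusted p under 0.05 with no fold threshold, 79 and 78 of the wider list were called in control and Cd offspring. In control offspring 77 were higher and 2 lower, against 4655 and 3510 of all 12605 genes. In Cd offspring 75 were higher and 3 lower, against 4597 and 3708 of all genes. In unstimulated cells the members called for Cd were 0 without the trend and 0 with only the libraries of the comparison. The median difference of responses was -0.032 with median-of-ratios scaling. The causes were not tested.

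With each library left out in turn, members called were 39 to 39 in control and 36 to 37 in Cd offspring for stimulation, 0 to 1 for Cd in unstimulated cells and 0 to 0 in stimulated cells. The members' median was 1.36 to 1.40 and 1.33 to 1.36 for stimulation, -0.016 to 0.023 and -0.067 to -0.0099 for Cd, and -0.071 to -0.034 for the difference of responses.

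Over all genes, the count called for Cd in unstimulated cells was 113, and 14 without the trend, 52 with only those libraries, 65 with no filter, 211 with limma voom, and 19 to 105 with 1 library left out (19 without control unstimulated replicate 6). For the difference of responses it was 45, and 4, 28 with no filter, 111 with limma voom, and 2 to 63 with 1 library left out (2 without Cd stimulated replicate 7, 3 without control stimulated replicate 6). In stimulated cells it was 0, and 9 with no filter and 2 without the trend.

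The main fit was planned without a pairing by number, which the labels do not give. The study paired stimulated with unstimulated samples in its qPCR tests. Libraries that share a number did not deviate together (correlation of deviations 0.064 and 0.0085 between unstimulated and stimulated libraries of control and Cd offspring). With 1 difference per group, this cannot show whether they came from the same animal. With the number as a replicate block, members called were 39 and 36 for stimulation, 1 and 0 for Cd and 0 for the difference, and the calls over all genes for Cd in unstimulated cells were 76. With the block nested in exposure, 39 and 36 members were called for stimulation and 25 genes for the difference of responses.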
